A study of Gallus gallus with 2 samples.

Results

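Mitochondrial ribosomal protein genes were identified in the table of all loci by their symbol, which is MRPL (large subunit) or MRPS (small subunit) followed by a number. Among the 12530 gene symbols of the table, which lists 22853 loci, 65 were of this kind. The proteins of 41 of them sit in the large subunit and those of 24 were counted in the small subunit. This division follows the position of the protein in the mammalian mitochondrial ribosome, so *MRPS18A* and *MRPS30* were counted with the large subunit. *MRPS36* keeps its ribosomal symbol here, although in mammals its product is now placed in the oxoglutarate dehydrogenase complex.

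Mitochondria carry their own ribosomes, which translate the few respiratory chain subunits that the mitochondrial genome encodes. The ribosomal RNAs are transcribed inside the organelle, whereas all proteins of these ribosomes are encoded in the nucleus, made on cytosolic ribosomes and imported. Many of the proteins have a bacterial counterpart and others occur only in mitochondrial ribosomes. The machinery is needed in every cell that respires, and tissues with a high respiratory demand, such as muscle, are rich in mitochondria.

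The RNA came from the left back skin of female Lueyang chickens aged 16 weeks, a breed in which birds have black or white skin. A skin piece of 8 mm was taken from 5 birds of each color, and RNA of 3 of them was pooled into 1 RNA-Seq library per color. The libraries are called WS for white and BS for black. Since each color had 1 library, no test was possible, so no difference below has a replicate check and the spread between birds is not known. Levels are given in FPKM, the fragments mapped to a transcript scaled to its length and to the size of the library, and the table used here holds no read number per locus. Differences are on the log2(FPKM + 1) scale as BS over WS, for loci that reached 1 FPKM in WS or BS. A gene was called different when the libraries were at least 2-fold apart on this scale.

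Both libraries carried the markers of skin. The 6 measured of 8 keratinocyte markers summed to 2515 FPKM for WS and 1393 FPKM for BS, and all 6 were lower in BS. *KRT5* and *KRT75* were listed at 0. Other cell types also differed: 7 measured of 14 skeletal muscle markers, all higher in BS, summed to 13545 and 25631 FPKM (*TNNC2* and *TPM2* at 0), 3 of 5 fibroblast markers to 7879 and 3858 FPKM, and 4 of 6 red blood cell markers, all lower in BS, to 5196 and 2605 FPKM. The 4 measured of 7 melanocyte markers were each at least 2-fold higher in BS, with sums of 29.0 and 116 FPKM, and *MLANA*, *PMEL* and *TYRP1* were at 0. The sums for 5 of 5 leukocyte markers were 122 and 174 FPKM, and for 3 of 4 adipocyte markers 1860 and 2352 FPKM with *LPL* at 0. All markers named here at 0 were placed on chromosome Z, Un_random or E22C19W28_E50C23, where every locus was at 0. Their zeros therefore give no level for the gene. The fibroblast and adipocyte markers did not all go with their sums. *COL1A2* (6495 and 2852 FPKM) made up most of the fibroblast sum, while *LUM* was at 303 FPKM for WS and 311 FPKM for BS. The adipocyte marker *PLIN1* was lower in BS, at 223 and 203 FPKM. Fewer cells of a type and less RNA per cell cannot be told apart in such bulk samples, and the part of tissue makeup in the values below was not tested. In WS a single locus accounted for 54.7% of all FPKM, and in BS for 30.7%, while the 65 genes together held 0.114% and 0.159%. These are shares of a total of 3.58e+06 FPKM for WS and 2.24e+06 FPKM for BS. The summed FPKM of the genes themselves was lower in BS, at 4073 and 3547 FPKM.

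Of the 65 genes, 56 had a level above 0, and all 56 passed the filter. Their levels differed little between WS and BS. None of the 56 was at least 2-fold apart, against 10.3% of 15020 loci, 4.85% of 9413 genes with a symbol and 4.85% of the 7769 genes with a symbol and at least 5 FPKM. The 56 differences ran from -0.61 to 0.72 around a median of 0.02, with quartiles of -0.18 and 0.19. Genes with a symbol had a median of -0.04, and all loci a median of -0.06. The SD across the 56 genes was 0.27, beside 0.66 across all genes with a symbol and 0.69 across those with at least 5 FPKM. Differences in this last group ran from -10.05 to 15.58, and such extremes weigh on its SD. Its quartiles were -0.28 and 0.18, so its spread was nearer to that of the 56 genes by quartiles than by SD. Within 1.25-fold lay 47 genes (83.9%), beside 61.3% of genes with a symbol. Several shorter lists of genes for mitochondrial functions, given below, had a higher share. BS was higher by any margin for 31 genes (55.4%) and lower for 25, whereas 45.4% of genes with a symbol were higher in BS. That split depended on the scaling, with 37, 38 or 39 of the 56 genes higher in BS (66.1, 67.9 or 69.6%) under 3 other ways to set the libraries level. These scalings also raised the median of all genes with a symbol, to 0.02, 0.06 and 0.08. The 45.4% is the share without them and is no measure for the scaled counts. None of the 56 genes reached 2-fold under any of these scalings.

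**Figure D1:**
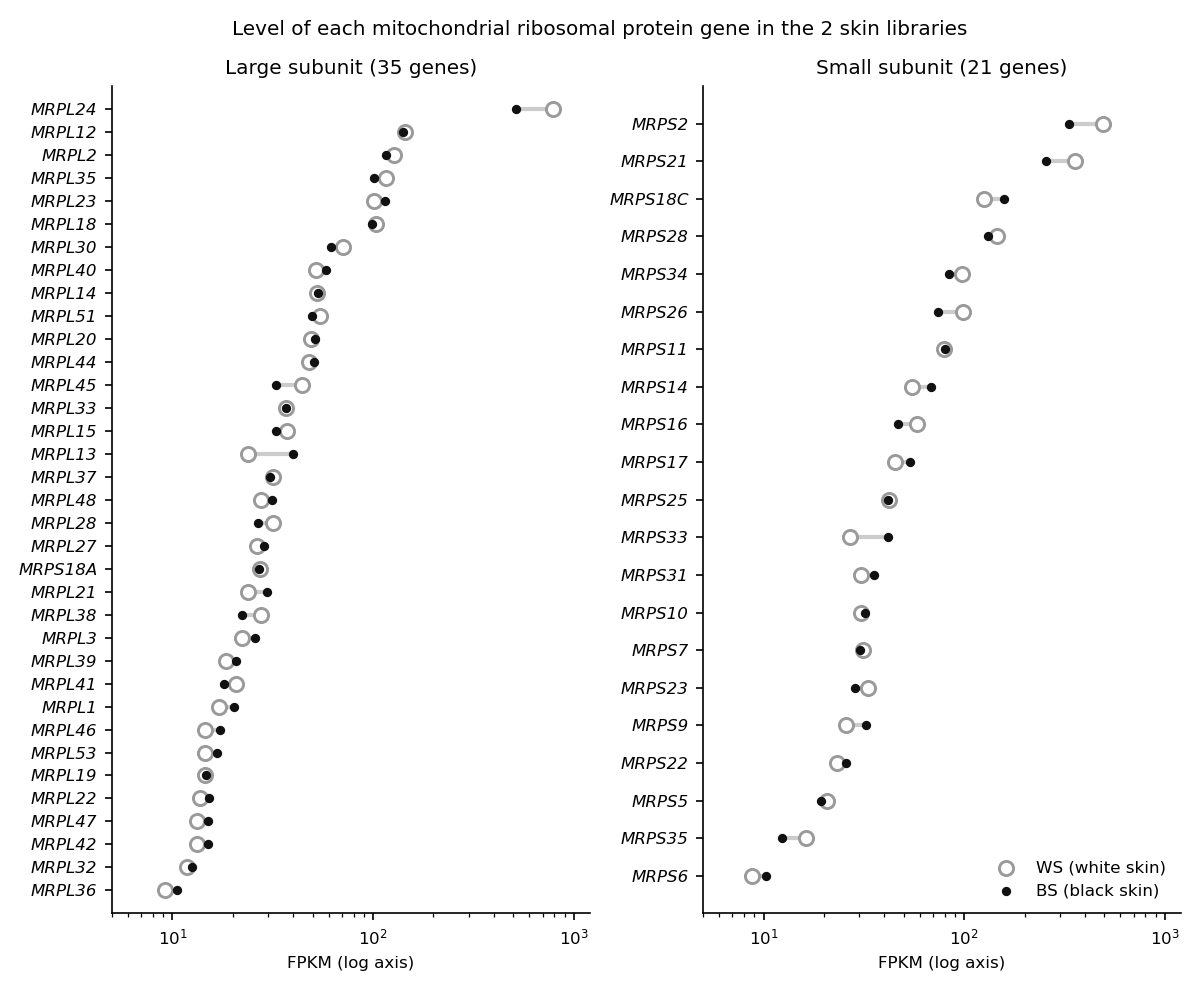
FPKM (log axis) of the 56 mitochondrial ribosomal protein genes above 0, by subunit and ordered by mean level. Open rings are WS, filled dots are BS and the grey bar joins both. The dot lies in or beside the ring for most genes, and the bar is long for *MRPL13* (23.8 and 39.9 FPKM), *MRPS33* (26.9 and 41.9 FPKM) and the most abundant genes.

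The genes differed far more from each other than between skin colors. In WS the highest level was 89.2 times the lowest, and in BS 50.2 times. Both ratios are uncertain, because the highest gene, *MRPL24*, has a locus shared with 14 other loci. The next gene, *MRPS2*, was at 494 FPKM (WS) and 332 FPKM (BS), and the lowest, *MRPS6*, at 8.79 and 10.2 FPKM. Median levels were 31.7 FPKM for WS and 32.8 FPKM for BS. The order of the genes was nearly kept, with a Spearman correlation of 0.963 between WS and BS over the 56 genes, which share both libraries, and of 0.949 over the 9413 genes with a symbol. For 39 of the 56 genes the rank differed by at most 3 places, and the largest shift was 14 places, for *MRPL13*. No value for the error of a single level exists here, so neighbors in this order cannot be separated.

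The 9 remaining genes were listed at 0 in both libraries. *MRPL17*, *MRPL50*, *MRPS27*, *MRPS30* and *MRPS36* were placed on chromosome Z, and *MRPL10*, *MRPL16*, *MRPL34* and *MRPS12* on the unplaced sequence Un_random. All 791 loci on chromosome Z and all 1285 loci on Un_random were at 0, as were all loci on 24 sequences in total (2269 loci). On the other 28 sequences, 90.4% of 20584 loci were above 0. The zeros of these 9 genes therefore came with their sequence as a whole and give no level for the gene. They include *MRPL10*, which anchors the stalk that receives translation factors, and *MRPS12*, a protein of the decoding center. The 6 loci of the mitochondrial genome were also all at 0, so the transcripts that these ribosomes read could not be set beside them.

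The large subunit joins amino acids and releases the new chain through its exit tunnel. Its 35 genes above 0 had a median difference of 0.07, with 21 higher and 14 lower in BS, and 32 lay within 1.25-fold. Their median level was 27.6 FPKM for WS and 30.7 FPKM for BS. *MRPL24*, a protein at the rim of the exit tunnel, was the most abundant of all 56 genes, at 784 FPKM (WS) and 514 FPKM (BS), a difference of -0.61. It was the one gene at least 1.5-fold lower in BS, against 8.12% of genes with a symbol, and this call ended under each of the 3 other scalings, where its difference was -0.54, -0.50 and -0.47. Its level is uncertain as a property of the gene, because the deposited locus (chr25:794250-1003814, 209564 bp) was shared with 14 other loci of the same span. Counted separately, 12 other expressed loci of any span overlapped it. *MRPL45*, which docks the ribosome to the inner membrane, was at 44.3 FPKM (WS) and 32.9 FPKM (BS) (-0.42; chr27:3860708-3864375).

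The other abundant large subunit genes lay close together in both libraries. *MRPL12*, which forms the factor-binding stalk, was at 145 FPKM (WS) and 141 FPKM (BS) (-0.04). *MRPL2*, a protein near the peptidyl transferase center, was at 127 and 116 FPKM (-0.14), and *MRPL35* was at 116 and 101 FPKM (-0.20). These 3 genes were lower in BS by small margins, and the sign for *MRPL12* turned under each of the 3 other scalings. *MRPL23*, another protein of the tunnel exit, was at 101 FPKM (WS) and 114 FPKM (BS) (0.17). *MRPL18*, of the central protuberance, was at 103 and 99.2 FPKM (-0.06), and its sign also turned under each scaling. *MRPL22*, whose protein lines the tunnel, was far less abundant, at 13.7 and 15.2 FPKM.

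*MRPL13* had the largest difference of the 56 genes. This large subunit protein with a bacterial counterpart was at 23.8 FPKM (WS) and 39.9 FPKM (BS), a difference of 0.72 (chr2:142510931-142526674). *MRPL13* and *MRPS33* were the 2 genes at least 1.5-fold higher in BS, against 8.46% of genes with a symbol. Next among large subunit genes came *MRPL21*, at 23.7 and 29.7 FPKM (0.32). *MRPL1*, a protein of the stalk beside the tRNA exit, was at 17.1 and 20.2 FPKM, and *MRPL3*, which lies near the catalytic center, at 22.3 and 25.7 FPKM. All 3 were higher in BS, by less than 1.25-fold on the log2(FPKM + 1) scale. *MRPL36* and *MRPL32*, both small basic proteins, were at the foot of the large subunit, with 9.16 and 10.6 FPKM (0.19) for the first and 11.8 and 12.5 FPKM (0.07) for the second.

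The small subunit binds the messenger RNA and pairs its codons with tRNAs. Its 21 genes above 0 had a median difference of -0.01, with 10 higher and 11 lower in BS, and 15 lay within 1.25-fold. Their median level was 42.2 FPKM for WS and 41.9 FPKM for BS. *MRPS2* was the most abundant, at 494 FPKM (WS) and 332 FPKM (BS) (-0.57; chr17:8402993-8403858), and *MRPS21* came next at 359 and 256 FPKM (-0.48; chr25:1687268-1688122). Both were lower in BS, and both have a short deposited locus, of 865 bp and 854 bp. *MRPS26* was at 98.6 FPKM (WS) and 74.2 FPKM (BS) (-0.41), and *MRPS35* at 16.3 and 12.4 FPKM (-0.37). *MRPS34*, a protein that occurs only in mitochondrial ribosomes, was at 98.0 and 84.2 FPKM (-0.22).

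Proteins of the small subunit head went both ways. *MRPS33*, which is also without a bacterial counterpart, was at 26.9 FPKM (WS) and 41.9 FPKM (BS) (0.62; chr1:59081423-59087581), the second largest difference toward BS among the 56 genes. *MRPS9* was at 25.7 and 32.3 FPKM (0.31), and *MRPS14* at 55.1 and 68.0 FPKM (0.30). Other head proteins stood nearly level, with *MRPS7* at 31.5 and 30.4 FPKM and *MRPS10* at 30.5 and 32.1 FPKM, while *MRPS35*, given above, was lower in BS.

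On the platform, where the messenger RNA leaves, *MRPS18C* was at 125 FPKM (WS) and 159 FPKM (BS) (0.34). Its platform partner *MRPS6* was the least abundant of the 56 genes, at 8.79 and 10.2 FPKM (0.20). A further platform protein, *MRPS11*, was at 79.7 and 80.0 FPKM. *MRPS28*, the mitochondrial relative of a bacterial protein that helps to bind messenger RNA, was at 146 and 132 FPKM (-0.15).

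**Figure D2:**
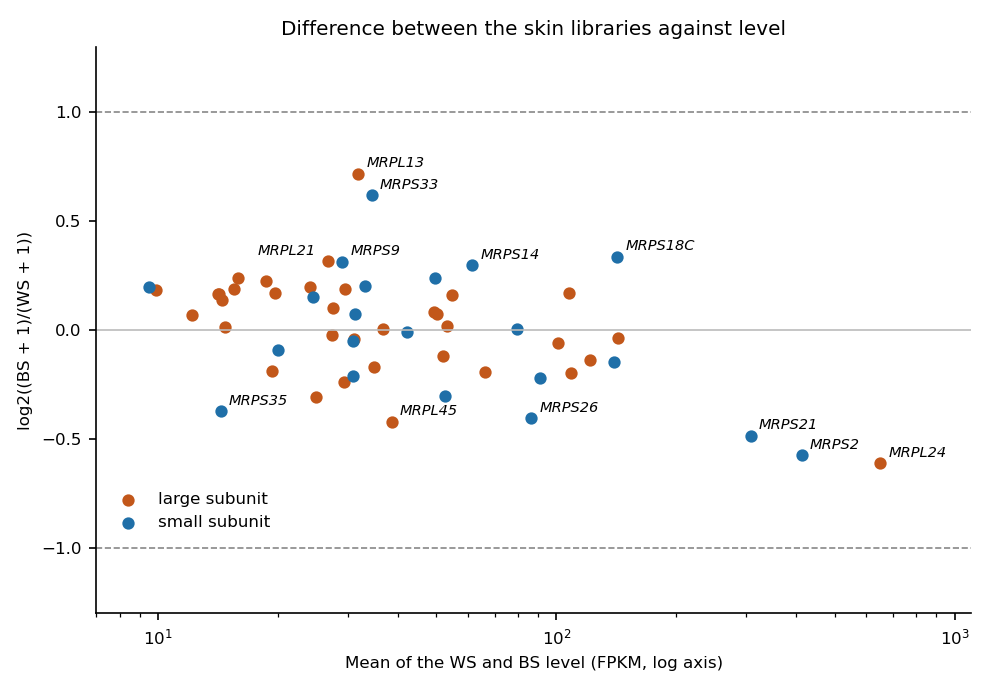
Difference between the libraries, log2((BS + 1)/(WS + 1)), against the mean of the WS and BS level (FPKM, log axis) for the 56 genes. Dashed lines mark 2-fold, names mark the 6 largest differences in each direction, and the 3 most abundant genes lie between -0.48 and -0.61.

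The difference between WS and BS went with abundance. *MRPL24*, *MRPS2* and *MRPS21* were the 3 most abundant genes in both libraries, and they had the 3 lowest differences. They held 40.2% of the summed FPKM of the 56 genes in WS and 31.1% in BS. The sum over all 56 genes was 4073 FPKM for WS and 3547 FPKM for BS, a ratio of 0.871, and without these 3 genes it was 2436 and 2445 FPKM, nearly equal. *MRPL24* enters the 56-gene sum and the shares above. Its level is uncertain as a property of the gene, because its locus was shared with 14 other loci. Across the 56 genes the Spearman correlation of mean level and difference was -0.36, and across the 7769 genes with a symbol and at least 5 FPKM it was -0.12; the points share both libraries and the level enters both measures. In a split by mean level, made after the values were seen, 12 of the upper 28 genes and 19 of the lower 28 were higher in BS, with medians of -0.05 and 0.14. These are 42.9% and 67.9%. Among the 7769 genes with a symbol and at least 5 FPKM, 42.3% were higher in BS, with a median of -0.06. The upper genes thus lay near that background, and the lower genes above it.

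Neither genes with a bacterial counterpart nor those without one lay far from 0. The 36 genes with one had a median difference of 0.02, with 21 higher and 15 lower in BS, and median levels of 36.8 and 38.3 FPKM. The 20 genes of proteins found only in mitochondrial ribosomes had a median difference of 0.04, with 10 higher and 10 lower, and median levels of 29.2 and 31.1 FPKM.

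The direction also went with the chromosome. This grouping was made after the values were seen. Of the 31 genes on chromosomes 1 to 5, 20 were higher in BS and the median difference was 0.07, and of the 7 on chromosomes 6 to 10, 6 were higher with a median of 0.15. On chromosomes 11 and above, which are mostly the small, gene-dense microchromosomes of birds, 5 of 18 were higher and 13 lower, with a median of -0.20. All genes with a symbol in the same 3 classes had medians of -0.01, -0.02 and -0.09, and 49.2, 46.9 and 39.2% of them were higher in BS. Under the other scalings 8 of the 18 genes on chromosomes 11 and above were higher in BS, with medians of -0.14, -0.09 and -0.07. All genes with a symbol on these chromosomes then had medians of -0.03, 0.02 and 0.03, and 1501, 1657 and 1724 of 3226 were higher. On chromosomes 1 to 5, 22, 23 and 24 of the 31 genes were higher under these scalings, and on chromosomes 6 to 10 all 7. Among all genes with a symbol, 2543, 2782 and 2886 of 4556 were higher on chromosomes 1 to 5. On chromosomes 6 to 10 it was 896, 983 and 1017 of 1631. The scalings thus raised the counts for all genes as well. The genes on chromosomes 11 and above had a median locus length of 3489.5 bp and a median level of 45.8 FPKM, beside 11413 bp and 31.3 FPKM on chromosomes 1 to 5, so chromosome, length and level cannot be told apart here. The 3 most abundant genes lie on chromosomes 25, 17 and 25.

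**Figure D3:**
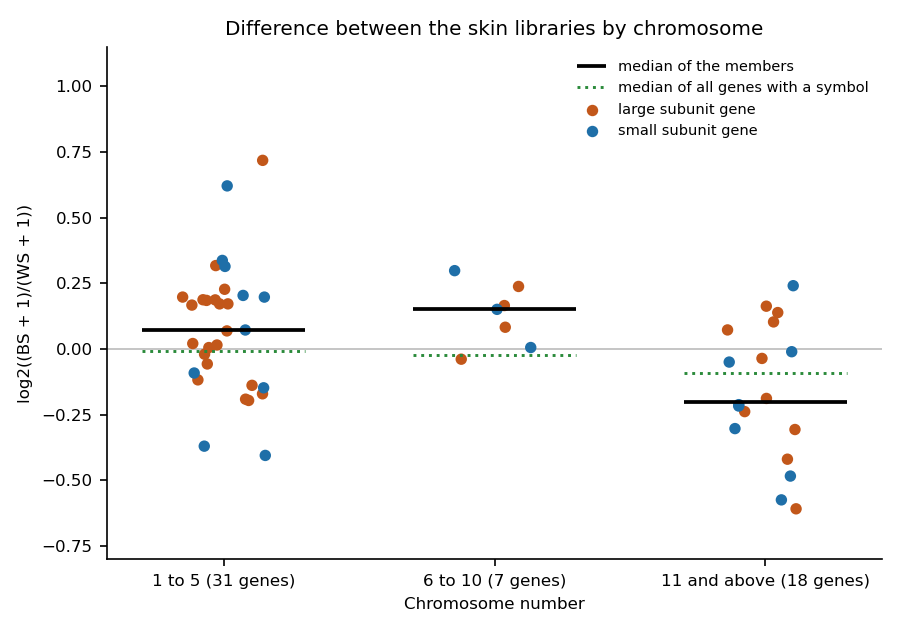
Difference between the libraries, log2((BS + 1)/(WS + 1)), for the 56 genes by chromosome number. Each point is a gene, black lines are the medians of these genes (0.07, 0.15 and -0.20) and dotted lines the medians of all genes with a symbol (-0.01, -0.02 and -0.09).

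A pair of neighboring genes was not at like levels. *MRPS11* (chr10:14861337-14864868) and *MRPL46* (chr10:14864930-14867432) lie 62 bp apart. *MRPS11* was at 79.7 FPKM (WS) and 80.0 FPKM (BS), and *MRPL46* at 14.5 and 17.2 FPKM. The first was thus 5.51 times the second in WS and 4.64 times in BS. Besides *MRPL24*, 8 genes had a locus that overlapped another expressed locus (*MRPL2*, *MRPL33*, *MRPL41*, *MRPL48*, *MRPS14*, *MRPS16*, *MRPS18C* and *MRPS25*), and how the counting divided reads between overlapping loci was not tested. Without these 9 genes, 27 of 47 were higher in BS, the median was 0.07 and none was 2-fold apart.

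Other proteins of the mitochondrial ribosome that have a different symbol lay in the same range. *DAP3*, a GTP-binding protein of the small subunit head, was at 32.3 FPKM (WS) and 25.5 FPKM (BS), and *PTCD3*, an RNA-binding protein of the small subunit, at 12.1 and 12.7 FPKM. *MRP63* (*MRPL57*) was at 204 and 170 FPKM, *ICT1* (*MRPL58*), a peptide-releasing enzyme built into the large subunit, at 27.6 and 30.7 FPKM, and *AURKAIP1* at 39.9 and 41.0 FPKM. Their median difference was 0.04, and 4 of the 5 lay within 1.25-fold. None of the 5 was 2-fold apart, which beside 4.85% of genes with a symbol is no result about 5 genes.

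Genes that serve mitochondrial translation form shorter lists. None of their measured genes was at 2-fold, which at the 4.85% of all genes with a symbol is no result about lists of 5 to 16 genes. Most lay within 1.25-fold, so the narrow spread was not particular to the mitochondrial ribosomal protein genes (SD 0.27). Within it were 15 of 16 for tRNA charging (SD 0.21), 14 of 15 for assembly (0.18) and 9 of 12 for translation factors (0.30). So were 9 of 10 for mitochondrial DNA and RNA (0.22) and 10 of 11 for insertion and quality control (0.22). All 5 nuclear regulators were too (0.19). Of 12 measured genes for translation factors and tRNA modification, 7 were higher and 5 lower in BS, with a median of 0.05. *MRRF*, the ribosome recycling factor, was at 24.3 FPKM (WS) and 15.9 FPKM (BS) (-0.58), *GUF1*, the relative of the bacterial factor LepA, at 5.82 and 3.72 FPKM (-0.53), and *GFM1*, an elongation factor, at 19.1 and 22.9 FPKM (0.25). Of the 16 measured genes for charging mitochondrial tRNAs, 6 were higher and 10 lower, with a median of -0.08. It was -0.21 with a filter of 5 FPKM and -0.03, 0.01 and 0.03 under the 3 other scalings, where 8 of the 16 were higher. The 15 measured genes of ribosome assembly had 7 higher, 8 lower and a median of -0.02, which turned to 0.04, 0.09 and 0.11 under these scalings. For the 10 measured genes that replicate, transcribe or process mitochondrial DNA and RNA, the median was -0.04, with 3 higher and 7 lower. Under the scalings 6, 7 and 7 of the 10 were higher and the median turned to 0.02, 0.06 and 0.08, so no direction holds for this list. *POLG*, the mitochondrial DNA polymerase, was at 12.5 and 8.19 FPKM (-0.55). Membrane insertion and quality control had 6 of 11 measured genes higher in BS and a median of 0.00, and its largest difference was that of *HSPE1*, a chaperonin, at 77.3 and 120.4 FPKM (0.63). Of the nuclear regulators, 2 of 5 measured genes were higher in BS and the median was -0.15. It was -0.03 with a filter of 5 FPKM and -0.10, -0.05 and -0.03 under the 3 other scalings.

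Values for the cytosolic ribosome and for the nuclear genes of oxidative phosphorylation lay further from 0. Of 60 measured genes named as cytosolic ribosomal proteins, 12 were higher and 48 lower in BS, with a median of -0.45, 3 at least 2-fold higher, 4 at least 2-fold lower and 16 within 1.25-fold (26.7%), beside 4.85% at 2-fold and 61.3% within 1.25-fold among genes with a symbol. *RPL26* was at 1725 FPKM (WS) and 517 FPKM (BS), and *RPS15A* at 1150 and 5271 FPKM. Single values are uncertain, since none has a replicate check and whether near-identical copies of such genes affected them was not tested. Of 51 measured oxidative phosphorylation genes, 32 were higher and 19 lower in BS, with a median of 0.22 and 30 within 1.25-fold (58.8%), a share close to that of all genes with a symbol. The one gene at 2-fold was *NDUFA4*, a respiratory chain subunit, at 302 and 639 FPKM (1.08). Beside these lists the mitochondrial ribosomal protein genes had a median of 0.02, and the differences between the lists have no replicate check. The distances from 0 depended on the scaling. Under the 3 other scalings the cytosolic ribosome median was -0.39, -0.34 and -0.32, and the oxidative phosphorylation median 0.29, 0.34 and 0.36. That of the mitochondrial ribosomal protein genes was then 0.08, 0.13 and 0.15. The skeletal muscle markers, with sums of 13545 FPKM for WS and 25631 FPKM for BS, moved in the same direction as the oxidative phosphorylation median. So did the marker sums of melanocytes, leukocytes and adipocytes, while those of keratinocytes, fibroblasts and red blood cells were lower in BS. The part of any of these cell types in that median was not tested.

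**Figure D4:**
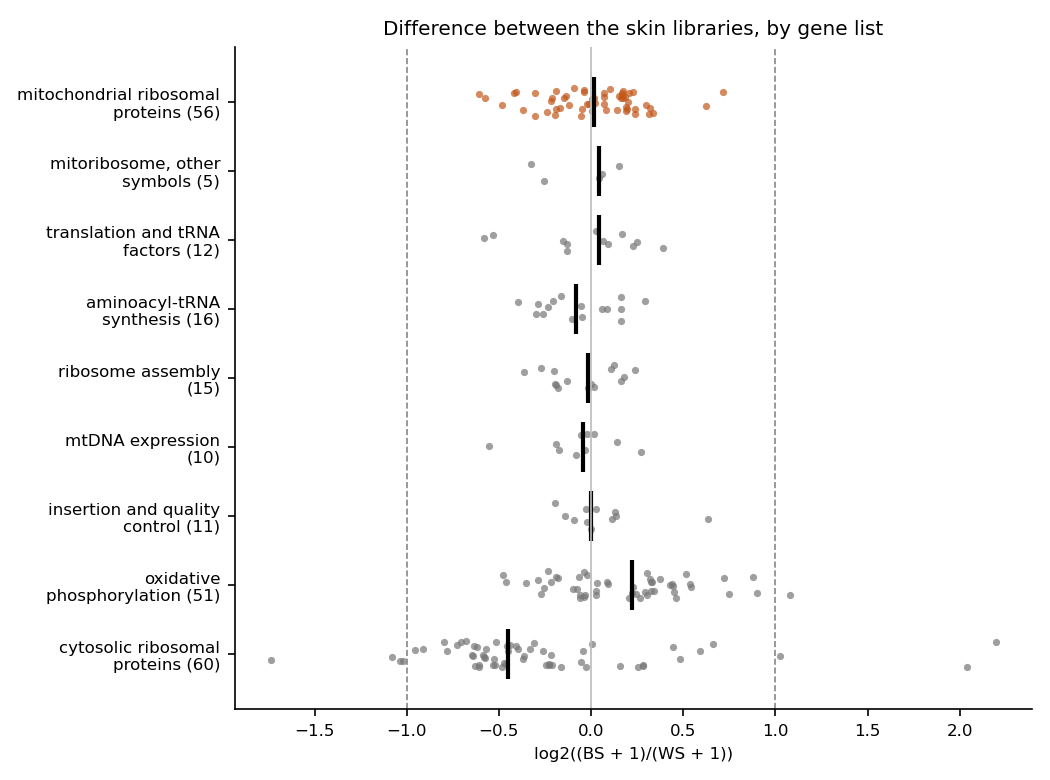
Difference between the libraries, log2((BS + 1)/(WS + 1)), for the mitochondrial ribosomal protein genes and 8 other gene lists. Each dot is a gene, black lines are medians and dashed lines mark 2-fold. All 56 mitochondrial ribosomal protein genes lie inside the dashed lines around 0.02, while the oxidative phosphorylation list has its median at 0.22 and the cytosolic ribosome list at -0.45.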

How the data were processed

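RNA-Seq was done on 1 pooled skin library per color. The submitters' processing notes name Cuffdiff and the genome build galGal4, without a version of the tool. The deposited table holds FPKM per locus, which the authors computed with Cuffdiff, beside columns with the authors' fold changes, test statistics, p-values and calls, none of which was used. The build of the deposited coordinates was not settled, so they are given as deposited. The values used here hold no reads per locus.

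Loci marked FAIL (5) were left out, names that merge several genes were not split, and for symbols with several loci the one with the highest mean was kept. A second *MRPL35* locus, at 0, dropped out in this way. A locus named GNRH-II/MRPS26, on Un_random and at 0 in both libraries, was outside the symbol rule and was not used for *MRPS26*. Gene symbols exclude names that are identifiers or dates. Of the 65 symbols, 64 are symbols in the GRCg7b annotation, which was used for names alone; 9 further symbols of that annotation (*MRPL9*, *MRPL43*, *MRPL49*, *MRPL54*, *MRPL55*, *MRPL57*, *MRPL58*, *MRPS15* and *MRPS24*) were not analysed here under those names. Differences were log2(FPKM + 1), and loci under 1 FPKM in both libraries were left out. All 65 genes could be named; folds were given for the 6 most abundant per subunit, the 6 largest differences in each direction with at least 5 FPKM, any gene at 2-fold and the 3 least abundant, and of other lists for some of the largest differences with at least 5 FPKM. The genes and lists were chosen with earlier results of these data known.

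Alternatives were pseudocounts of 0.1 and 5, no filter, a filter of 5 FPKM, sums over loci and 3 scalings of BS: the median log2 ratio set to 0, the upper quartiles set equal, and the totals without the 50 most abundant loci set equal. Leaving out overlapping loci was added after the data were seen. The script was tested on simulated data. Python 3.11.15, pandas 2.3.3, numpy 2.4.6 and matplotlib 3.10.9 were used.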

Additional observations from a re-analysis of the deposited data

How the results depend on the processing

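No paired analysis was possible because each color had 1 library and no test was made; replicates could not be left out for the same reason. None of the mitochondrial ribosomal protein genes was 2-fold apart under any alternative tried. The number higher in BS was 31 under both pseudocounts, both filters and the sum over loci, 37, 38 and 39 under the 3 scalings, and 27 of 47 without the genes that overlap an expressed locus. The median difference of all 56 genes was 0.02 as reported. With the median log2 ratio set to 0 it was 0.080, with equal upper quartiles 0.13, with equal totals without the 50 most abundant loci 0.15, and without the overlapping genes 0.069. In the same order of scalings the large subunit median was 0.13, 0.17 and 0.19, and the small subunit median 0.053, 0.10 and 0.12. Without a filter the large subunit median was 0.0054. These scalings multiply all BS values by a constant and so shift all genes nearly alike, and the median of genes with a symbol became 0.02, 0.06 and 0.08. Of the 22 genes given with a fold, 20 kept their sign under each scaling, the exceptions being *MRPL12* and *MRPL18*. *MRPL24* was no longer 1.5-fold lower in BS under these scalings, nor was any other of the genes, and with a pseudocount of 5 only *MRPL13* was 1.5-fold higher. The table holds no reads per locus, so the precision of a single level is unknown.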
